A study of Rattus norvegicus with 4 samples.

Results

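Voltage-gated calcium channel subunits were represented by 6 of the 720 genes on a rat oligonucleotide array, in 12 of its 1263 probe sets other than controls. The probe sets were taken by gene symbol, as every probe set that the array's annotation assigns to Cacna1c, Cacna1d, Cacna1g, Cacna2d1, Cacnb1 or Cacnb3. Earlier results of these data were known when these genes were chosen. Of the 12 probe sets, 9 read pore-forming and 3 read auxiliary subunits. The 4 arrays held total RNA of rat samples labelled brain and adrenal medulla, with 1 array for each of digested day 7, undigested day 7, digested day 1 and undigested day 1. What was digested, the strain, the age and the number of animals were not given in the sources used here, and neither was the purpose of the study. Each group held 1 array, which leaves no replicate error, so differences are given as sizes, and a probe set was counted when its signal differed at least 2-fold.

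A voltage-gated calcium channel opens when the membrane is depolarised and lets calcium into the cell. Its alpha1 subunit forms the pore and sets the kind of current, a beta subunit binds the pore from the inside of the cell and helps it to reach the membrane, and an alpha2delta subunit sits on the outside and raises the number of channels at the surface. In adrenal chromaffin cells and in neurons, calcium that enters through these channels triggers the release of catecholamines and transmitters. Cacna1c and Cacna1d code for pores of L-type channels and Cacna1g for the pore of a T-type channel, which opens at weaker depolarisation.

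The auxiliary subunits were lower with digestion at day 7 and higher with it at day 1, a sign change that 40.3% of all analysed probe sets shared. The 2 pore-forming members that were bright enough to analyse kept the same sign at both days. Cacnb1 had the largest digestion differences of the 5 analysed probe sets, 2.30-fold lower with digestion at day 7 and 6.80-fold higher at day 1. The value at day 1 is set against a signal near the floor, and with a floor at the 40th percentile its log2 is 1.43 in place of 2.77. Cacnb3 and Cacna2d1 differed by at most 1.80-fold in any pair of arrays of the same day or the same digestion state. Cacna1g was higher with digestion at both days, as were 30.9% of all analysed probe sets. The analysed Cacna1c probe set was lower at both, as were 15.2%, and all these differences were less than 2-fold. Of the other pore genes, Cacna1a (M99222_s_at) and Cacna1b (AF055477_at and M92905_s_at) had analysed probe sets that changed sign in the scaled signals. The Cacna1a probe sets rc_AI229031_s_at and AF051526_at kept it. Cacna1d had no probe set above the brightness limit. In such bulk samples, fewer cells of a type and less RNA per cell cannot be told apart.

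Signals were scaled to a common median, and values under a floor of 51.8, the 20th percentile of all scaled values, were set to it. The brightness limit for analysis was the median of the mean log2 signals, equal to a signal of 229, and 632 probe sets reached it. Of the 12 members, 5 passed, 1 each for Cacna1c, Cacna1g, Cacna2d1, Cacnb1 and Cacnb3. The 7 others, 2 for Cacna1c and 5 for Cacna1d, fell below the limit. Nearest to it were the Cacnb1 probe set inside, with a mean of 305, and a Cacna1c probe set outside, with a mean of 198. The arrays differed in their controls. Hybridisation controls read by 9 probe sets lay at a median log2 difference of -1.35 from the other arrays on the digested day 7 array, and of 0.33 to 0.57 on each other array. The ratio of the 3′ to the 5′ beta-actin probe set was 2.66 on the undigested day 7 array and between 1.35 and 1.48 elsewhere.

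The sample label was checked against cell markers. Of the chromaffin cell list, 5 of 9 genes were on the array, among them Th, the rate-limiting enzyme of catecholamine synthesis, and their signals summed to 237332 on the digested and 351949 on the undigested day 7 array, and to 288206 on the digested and 270424 on the undigested day 1 array. Most of that sum was Th, with 163625 and 256725 at day 7 and 233350 and 221633 at day 1 in the digested and undigested samples. The median log2 difference of the 5 analysed chromaffin probe sets was -0.50 for digestion at day 7 and 0.27 at day 1. Between the days it was 0.27 in digested and 1.06 in undigested samples. In the same order, the auxiliary subunits were at -0.60, 0.46, -0.25 and 0.85, so the sign differed between the days in digested samples. Neuron probe sets were at -0.45, 0.17, -0.54 and -0.03, and all analysed probe sets at -0.05, 0.12, 0.04 and 0.17. Between the days in undigested samples 3 of the 5 chromaffin probe sets passed 2-fold, against 13.3% of all analysed probe sets. They were 1 each of the catecholamine enzyme genes Dbh (1.29) and Ddc (1.78) and the enkephalin precursor gene Penk (1.06), against 0.21 for Th. The brighter Ddc probe set, the 1 used in the sum, was at 0.95. Neuron markers, 8 of 10 measured, summed to 63587 and 101626 on the digested and undigested day 7 arrays, and to 102449 and 94390.1 on the digested and undigested day 1 arrays. Glial markers, 8 of 12 measured, summed to between 6387 and 9790.3. Pnmt, Chga, Chgb and Slc18a1 of the chromaffin list and all 8 adrenal cortex genes were not measured. Of the single marker measured for each, Vim for fibroblasts and endothelium was at the floor on all 4 arrays, Itgam for immune cells read between 7.92 and 123, and the muscle sodium channel gene Scn4a between 127 and 350.2. The chromaffin sum was highest on the undigested day 7 array, where 4 of the 5 analysed calcium channel probe sets were also highest. So were 38.3% of all analysed probe sets. The part of cell makeup in the channel signals was not tested.

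Cacna1c, the gene of the L-type pore that is widespread in brain, heart and smooth muscle, had 1 probe set above the brightness limit, M59786_at. Its scaled signal was 1261 in the digested and 1524 in the undigested sample at day 7, and 1043 in the digested and 1277 in the undigested sample at day 1. The undigested sample was the higher one on both days. The log2 difference of digested minus undigested was -0.27 at day 7 and -0.29 at day 1, which is 1.21-fold and 1.22-fold lower. Between the days, it was 1.21-fold higher at day 7 in the digested and 1.19-fold in the undigested samples. Its whole range over the 4 arrays was 1.46-fold, the narrowest of the 5 analysed members.

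The other Cacna1c probe sets lay below the brightness limit, and their differences were not the same in size. U31815_s_at read 238 and 276 in the digested and undigested samples at day 7, and 88.6 and 263 at day 1. Here the digested day 1 array stood apart from the other 3, with a digestion difference of -0.21 at day 7 and -1.57 at day 1 on the log2 scale. M89924cds_s_at read 83.0 and 59.0 at day 7 and 47.9 and 126 at day 1 in the digested and undigested samples. Its digested day 1 value was under the floor, and its digestion difference changed sign between the days, at 0.49 for day 7 and -1.28 for day 1. All 3 Cacna1c probe sets were lower in the digested than in the undigested sample at day 1, by 1.22-fold, 2.97-fold and, against the floor, 2.42-fold. With a floor at the 40th percentile this did not hold for all, since the log2 difference of U31815_s_at was then -0.70 and that of M89924cds_s_at 0.

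Cacna1g, the T-type pore gene, was the only analysed member that was highest on the digested day 7 array. It read 905 in the digested and 584 in the undigested sample at day 7, and 595 in the digested and 432 in the undigested sample at day 1. Both digested values were above the undigested value of the same day, and both day 7 values were above the day 1 value of the same digestion state. It was 1.55-fold higher with digestion at day 7 and 1.38-fold at day 1. The day 7 sample exceeded the day 1 sample by 1.52-fold among digested and 1.35-fold among undigested samples. Set against the median difference of all analysed probe sets, the digestion difference of Cacna1g was 0.68 higher at day 7 and 0.34 higher at day 1 on the log2 scale. An additive limma fit of digestion and day over all 632 probe sets gave Cacna1g a digestion effect of 0.55 ± 0.31 (SE, log2) with an adjusted p of 0.893, and a day effect of 0.52 with an adjusted p of 0.468.

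Cacna1d, the gene of the L-type pore that opens at weaker depolarisation than that of Cacna1c, was read by 5 probe sets, all below the brightness limit. Of their 20 values, 14 were at or under the floor. M57682_at and U31772_s_at were under it on every array, between 8.11 and 25.2. The other 3 were above it on 2 arrays each, and not on the same ones. U49126_s_at read 117 and 335 in the digested and undigested samples at day 7, and 26.9 and 38.6 at day 1. D38101_s_at read 19.1 and 34.0 at day 7, and 176 and 109 at day 1 in the digested and undigested samples. M99221_s_at was above the floor in the digested sample at day 7, with 153 against 27.6 in the undigested sample, and in the undigested sample at day 1, with 12.4 in the digested and 73.1 in the undigested sample. One probe set thus read higher at day 7, another higher at day 1 and the third in one sample of each day. The files give no detection calls, so no direction is given for Cacna1d.

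**Figure D1:**
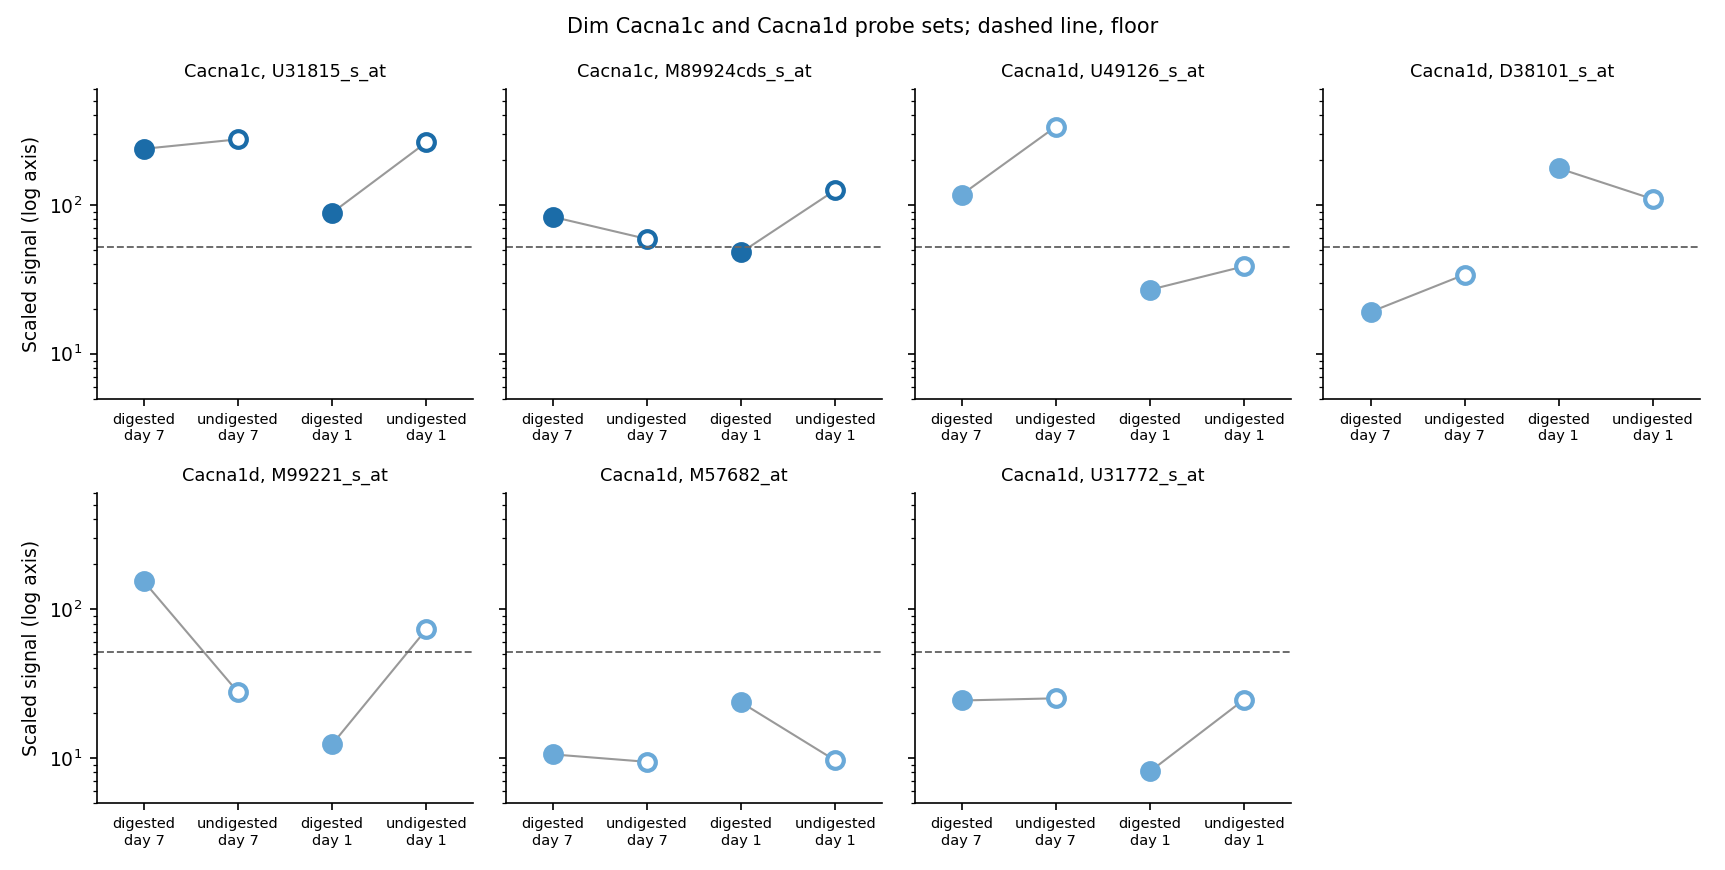
Scaled signal (log axis) of the 7 dim Cacna1c and Cacna1d probe sets on the digested and undigested day 7 and day 1 arrays, filled points for digested and open points for undigested samples, 1 array per point. The dashed line is the floor of 51.8; the 5 Cacna1d probe sets lie under it in 14 of 20 values and do not share a pattern.

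Cacna2d1, which codes for the alpha2delta subunit that binds the drug gabapentin, read 7343 in the digested and 10406 in the undigested sample at day 7, and 8838 in the digested and 6429 in the undigested sample at day 1. The digested sample was the lower one at day 7 and the higher one at day 1. It was 1.42-fold lower with digestion at day 7 and 1.37-fold higher at day 1. Between the days, the undigested samples differed more, 1.62-fold higher at day 7, than the digested samples, 1.20-fold lower at day 7; no test of that contrast was possible.

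Cacnb3, a beta subunit gene with prominent expression in the nervous system, followed the same order of arrays. It read 3682 in the digested and 5565 in the undigested sample at day 7, and 3728 in the digested and 3089.8 in the undigested sample at day 1. Both digested values lay between the undigested ones and within 1.01-fold of each other. The digestion difference was 1.51-fold lower at day 7 and 1.21-fold higher at day 1, and the undigested day 7 sample was 1.80-fold above the undigested day 1 sample. The sign of the day difference among digested samples, -0.02 on the log2 scale, turned to 0.02 in the values as deposited.

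Cacnb1, the beta subunit gene best known from skeletal muscle and also expressed in brain, was read by 1 probe set, derived from an expressed sequence tag. It read 367 in the digested and 844 in the undigested sample at day 7, and 436 in the digested and 64.1 in the undigested sample at day 1. The undigested day 1 value was the one low value, under 2 times the floor, and the other 3 lay within 2.30-fold of each other. With the scaling and floor used here, the difference between the undigested samples was a log2 of 3.72, or 13.2-fold higher at day 7. It was the largest in size of all 632 analysed probe sets in that comparison, where the lowest value was -3.34. As deposited, the Cacnb1 difference was 3.49. The Cacnb1 digestion difference of 2.77 at day 1 ranked 2 by size, and that of -1.20 at day 7 ranked 51. The day difference of -0.25 between the digested samples ranked 389. Ranks under other scalings and floors were not worked out.

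The size of the Cacnb1 differences that involve the undigested day 1 array depended on the floor. With the floor at the 40th percentile the log2 difference with digestion at day 1 was 1.43 and the day difference in undigested samples 2.38, and with an offset of 50 in place of the floor they were 2.09 and 2.97. All of these stayed past 2-fold. The digestion difference at day 7 does not use that array, and it lay between -1.20 and -1.06 under the 5 scalings and floors tried. The additive limma fit gave Cacnb1 a digestion effect of 0.78 ± 0.74 (SE, log2) with an adjusted p of 0.999, and a day effect of 1.74 ± 0.74 with an adjusted p of 0.343.

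**Figure D2:**
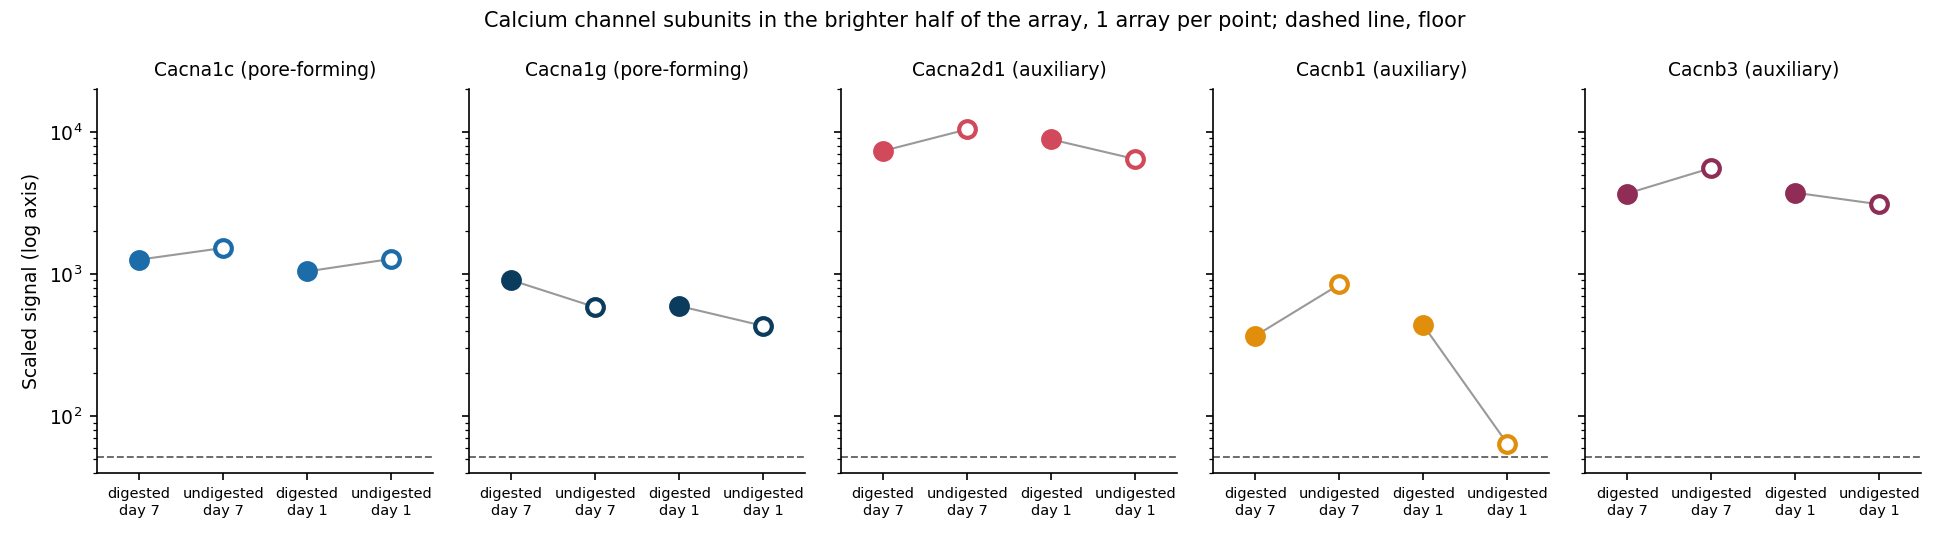
Scaled signal (log axis) of the 5 analysed calcium channel probe sets on the digested and undigested day 7 and day 1 arrays, filled points for digested and open points for undigested samples, 1 array per point, with the floor of 51.8 dashed. Cacnb1 has 1 low value, 64.1 on the undigested day 1 array, and the auxiliary subunits Cacna2d1, Cacnb1 and Cacnb3 are all highest on the undigested day 7 array and lowest on the undigested day 1 array.

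The 3 auxiliary subunits shared 1 order of the arrays, which from high to low was undigested day 7, digested day 1, digested day 7 and undigested day 1. Neither analysed pore-forming probe set had it. Of all 632 analysed probe sets, 37 had this order, or 5.85%. In the values as deposited 20 of them (3.16%) had it, and Cacna2d1 and Cacnb1 were among these but Cacnb3 was not, since its digested day 7 value then exceeded its digested day 1 value. The ends of the order were common on these arrays, as 38.3% of the analysed probe sets were highest on the undigested day 7 array and 36.7% lowest on the undigested day 1 array. A digestion difference that was lower at day 7 and higher at day 1 was found in 255 probe sets, 40.3%, so the sign change of the auxiliary subunits is also a frequent one here.

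Among the 5 analysed members, Cacna2d1 and Cacnb3 had the most alike profiles. The Euclidean distance between their log2 signals over the 4 arrays, each centred on its own mean, was 0.25, against 0.48 for the next closest pair, Cacna1c and Cacnb3, and 2.24 to 2.70 for pairs with Cacnb1. Their promoters are shown because they are the pair that moved most alike, with that of Cacna1c as a bright pore-forming member. RefSeq promoter entries (build GRCr8) matched 4 of the 6 genes, and the 250 bases before the first listed start are given, 5′ to 3′, with GC boxes (GGGCGG on either strand) in capitals. The Cacna2d1 stretch is chr4:20330148-20330397 on the minus strand, that of Cacnb3 is chr7:131666301-131666550 on the plus strand and that of Cacna1c is chr4:154051749-154051998 on the minus strand.
Cacna2d1 promoter: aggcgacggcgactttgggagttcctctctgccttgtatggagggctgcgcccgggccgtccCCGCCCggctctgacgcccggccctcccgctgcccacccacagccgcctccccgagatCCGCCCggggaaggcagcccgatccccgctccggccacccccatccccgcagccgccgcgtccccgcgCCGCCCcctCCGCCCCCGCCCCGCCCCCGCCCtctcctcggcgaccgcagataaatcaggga
Cacnb3 promoter: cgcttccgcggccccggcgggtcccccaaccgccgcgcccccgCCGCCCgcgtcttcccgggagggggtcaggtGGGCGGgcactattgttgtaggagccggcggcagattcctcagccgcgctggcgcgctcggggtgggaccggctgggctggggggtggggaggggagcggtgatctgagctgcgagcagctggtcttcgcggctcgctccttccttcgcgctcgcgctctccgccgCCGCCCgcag
Cacna1c promoter: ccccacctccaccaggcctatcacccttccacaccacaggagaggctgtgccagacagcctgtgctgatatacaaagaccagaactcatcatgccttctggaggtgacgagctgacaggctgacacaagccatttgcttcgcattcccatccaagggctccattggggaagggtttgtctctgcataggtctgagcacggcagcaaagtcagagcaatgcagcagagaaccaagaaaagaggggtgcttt

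The Cacna2d1 stretch held 7 GC boxes, counting overlapping ones, the Cacnb3 stretch 3 and the Cacna1c stretch 0. GC made up 77.2%, 76.4% and 54.4% of their bases, against a median of 52% over 27457 rat promoters. A GC box was present in 32.4% of all promoters of that length. The Cacna1d stretch, whose gene had no probe set with a mean above the brightness limit, held 9 GC boxes and 88.8% GC. The TATA box TATAAA (13.1% of all promoters), the cyclic AMP response element TGACGTCA (1.70%) and the E-box CACGTG (5.79%) were searched on both strands and had 0 matches in all 4 stretches. A match is a description of the letters and not a site of binding.

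For digestion at day 7, 1 of the 5 analysed members passed 2-fold, Cacnb1, against 11.4% of all 632 analysed probe sets. Of the brightest 316 of these, which do not hold Cacnb1, 3.80% passed. The auxiliary median was -0.60, with a range of -1.20 to -0.50, and the pore-forming values were -0.27 and 0.63. The median of all analysed probe sets was -0.05. The 3 auxiliary subunits were lower with digestion, and of the pore-forming ones Cacna1c was lower and Cacna1g higher. This pair of arrays holds the lowest hybridisation controls and the highest beta-actin ratio, and their part in these differences was not tested.

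For digestion at day 1, 1 of 5 passed 2-fold, again Cacnb1, against 3.48% of all analysed probe sets. Of the brightest 316, which do not hold Cacnb1, 0 passed. The auxiliary median was 0.46, with a range of 0.27 to 2.77, and the pore-forming values were -0.29 and 0.46, beside a median of 0.12 for all. Values as deposited moved the median of all by -0.13 at day 1 and by 0.14 at day 7. Set against the median of all, Cacna2d1 lay at -0.45 at day 7 and 0.34 at day 1, Cacnb3 at -0.54 and 0.15, and Cacna1c at -0.22 and -0.41. The signs of all 5 members were thus the same with and without that shift.

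**Figure D3:**
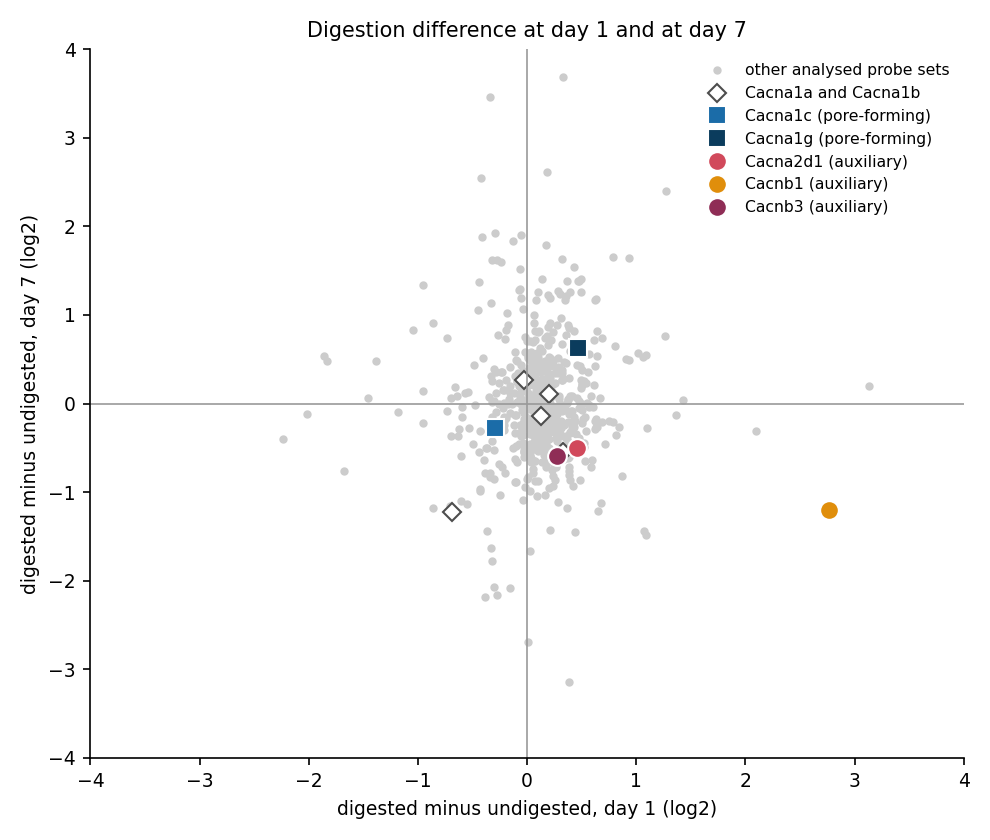
Digested minus undigested log2 difference at day 1 (x axis) and at day 7 (y axis) for the 632 analysed probe sets (grey), the 5 analysed members (squares pore-forming, circles auxiliary) and the analysed probe sets of Cacna1a and Cacna1b (open diamonds). Cacna2d1, Cacnb3 and Cacnb1 lie where the difference is higher at day 1 and lower at day 7, Cacna1g is higher at both days and Cacna1c lower at both.

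The change of the digestion difference, day 7 less day 1, was -3.97 for Cacnb1, -0.96 for Cacna2d1 and -0.87 for Cacnb3 on the log2 scale. For the pore-forming subunits it was 0.17 for Cacna1g and 0.02 for Cacna1c. With the scaling and floor used here, Cacnb1 had the largest such change in size of all analysed probe sets. The largest change in the other direction was 3.80. The Cacnb1 change was -3.69 as deposited and -2.63 with a floor at the 40th percentile, and its rank under those settings was not worked out. Cacnb1 was 1 of 5 members past 2-fold, against 14.4% of all. Over all analysed probe sets the median was -0.18, which the values as deposited moved by 0.27. Since it takes up all 4 arrays, it has no test.

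Between the days, 0 of 5 members passed 2-fold in the digested samples, against 8.07% of all, and 1 of 5, Cacnb1, in the undigested samples, against 13.3%. All 5 were higher at day 7 in the undigested samples, as were 59.7% of all analysed probe sets, with an auxiliary median of 0.85 and pore-forming values of 0.26 and 0.44. The undigested day 7 array has the beta-actin ratio of 2.66, and the chromaffin markers were also higher there, at a median of 1.06. The part of either was not tested. In the digested samples the auxiliary median was -0.25, with a range of -0.27 to -0.02, and the pore-forming values were 0.27 and 0.60. The median of all was 0.04 in digested and 0.17 in undigested samples, and the values as deposited moved these by 0.04 and -0.23. The day difference in undigested samples and the digestion difference at day 1 share the undigested day 1 array, and the day difference also shares the undigested day 7 array with the digestion difference at day 7, so their agreement in a gene is no separate evidence. With the additive limma fit, 0 of 5 members had an adjusted p under 0.05 for digestion or for day, and at an unadjusted p under 0.05 there were 0 for digestion, against 6.65% of all, and 1, Cacnb1, for day, against 14.4%. Over all 632 probe sets the adjusted p called 0 for digestion and 1 (0.158%) for day.

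**Figure D4:**
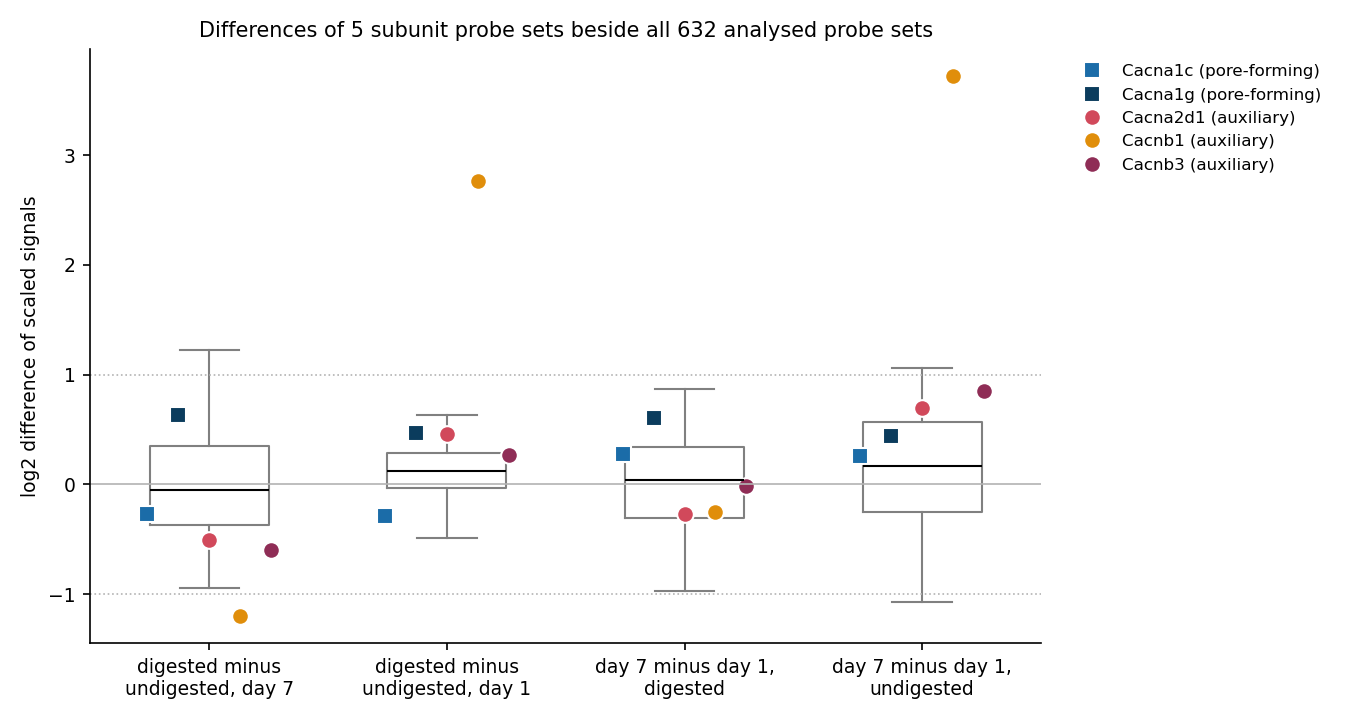
Log2 differences of the 5 analysed members (squares pore-forming, circles auxiliary) in the 4 comparisons, beside boxes for all 632 analysed probe sets (line median, box quartiles, whiskers 5th to 95th percentile; dotted lines 2-fold). Cacnb1 lies far above the whiskers for day 1 digestion (2.77) and for the undigested day difference (3.72) and below them for day 7 digestion (-1.20).

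With other limits the counts among the 5 analysed members changed as follows. At 1.5-fold, Cacna1g, Cacnb1 and Cacnb3 passed for digestion at day 7, which is 3 of 5 against 27.8% of all analysed probe sets, and 1 of 5 at day 1 against 11.6%. Between the days 1 of 5 passed in digested samples against 23.7%, and 3 of 5 in undigested samples against 37.2%, and for the change of the digestion difference 3 of 5 passed against 36.9%. At 3-fold, Cacnb1 passed for digestion at day 1 (1.27% of all), between the days in undigested samples (3.16%) and in the change of the digestion difference (6.17%), while 0 of 5 passed for digestion at day 7 (3.96%) and between the days in digested samples (2.85%). With all 12 probe sets and no brightness limit, 3 passed 2-fold for digestion at day 7 and 3 at day 1, against 21.6% and 16.5% of all 1263. Between the days 4 passed in digested and 4 in undigested samples, against 19.2% and 22.5%, and 5 passed for the change of the digestion difference, against 29%.

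Other members of the calcium channel family were read by 11 probe sets of 6 genes, of which 5 were analysed, all of the presynaptic pore genes Cacna1a (P/Q-type) and Cacna1b (N-type). The Cacna1b probe set AF055477_at read 2675 in the digested and 2952 in the undigested sample at day 7, and 1721 and 1575 at day 1. It was higher at day 7 in both digestion states, 1.55-fold in digested and 1.87-fold in undigested samples, and the other Cacna1b probe set, M92905_s_at, 1.28-fold and 1.05-fold. As deposited, its undigested signals had the opposite order, 1326 at day 7 and 1490.4 at day 1. Of the 3 analysed Cacna1a probe sets, rc_AI229031_s_at stayed within 1.24-fold over the 4 arrays. For M99222_s_at the digestion difference was -0.55 at day 7 and 0.33 at day 1, the sign change of the auxiliary subunits. AF055477_at of Cacna1b had the same signs, at -0.14 and 0.13. As deposited its digested and undigested signals were nearly equal on each day, 2719 and 2715 at day 7 and 1703 and 1702 at day 1. The sign change was absent there. The differences were 0.11 and 0.20 for rc_AI229031_s_at, -1.22 and -0.69 for AF051526_at and 0.27 and -0.03 for M92905_s_at. AF051526_at read 232 against 543 at day 7 and 373 against 601 at day 1 in digested against undigested samples. AF051526_at was the only 1 of these 5 past 2-fold for digestion at day 7, against 11.4% of all analysed probe sets. At day 1, 0 of 5 passed, against 3.48%. Between the days 0 of 5 passed, against 8.07% in digested and 13.3% in undigested samples. The beta subunit gene Cacnb2 read 82.2 and 56.7 at day 7 and 159 and 39.5 at day 1 in digested and undigested samples, and like the probe sets of Cacna1e, Cacna1s and Cacng1 it was below the brightness limit.

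By the distance between centred log2 profiles, the 3 genes most like Cacnb1 among 381 named genes with no value at the floor were Kcnj4, an inward rectifier potassium channel gene (1.57), Nr4a1, an orphan nuclear receptor gene (1.68), and Chrna1, the gene of the muscle nicotinic receptor's alpha subunit (1.72). Their undigested day differences were 1.54 for Kcnj4, 1.83 for Nr4a1 and 1.28 for Chrna1, against 3.72 for Cacnb1. For digestion at day 7 they were at -0.12, -1.44 and 0.04 in that order, against -1.20. At day 1 they were at 1.37, 1.07 and 1.43, against 2.77. For Cacna1g the nearest were Mapk6, a protein kinase gene (0.11), Clns1a, a gene linked to chloride current and splicing (0.12), and Rab4a, a gene of endosome recycling (0.19). Mapk6 was 0.59 and 0.39 higher with digestion at day 7 and day 1, and Clns1a 0.71 and 0.61. Another analysed probe set of Nr4a1 was at 0.46 between the days in undigested samples, and another of Mapk6 was 0.04 and 0.18 higher with digestion at day 7 and day 1. The distances run over 4 arrays and have no error.

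Genes that act with calcium channels were counted from lists. For calcium release and removal, 7 of 19 probe sets were analysed, and only Atp2b1, a calcium pump gene of the plasma membrane, passed 2-fold, at a log2 of 1.93 for digestion at day 7 and -1.66 between the days in undigested samples. Its 2 other probe sets, below the brightness limit, had the opposite sign in both comparisons, with -2.50 and -2.87 for digestion at day 7. For calcium binding proteins and calcium-dependent kinases and phosphatases, 15 of 24 were analysed. Of these, a pair of probe sets of Camk2d, a subunit gene of the kinase CaMKII, passed 2-fold with digestion, rc_AI009268_at at -1.12 at day 7 and rc_AA925495_at at -1.68 at day 1. These did not repeat each other, as rc_AI009268_at was at 0.29 at day 1, and the 3 other Camk2d probe sets lay between -0.28 and 0.19 for digestion at both days. The probe set rc_AA925495_at was also 1.49 higher at day 7 in the digested samples, and the kinase gene Camk4 had -1.14 there. For channel partners and exocytosis, 21 of 24 were analysed, and Kcnma1, the gene of the calcium-activated BK potassium channel, was past 2-fold for digestion at day 7 (1.34) and between the days in undigested samples (-2.66). The other analysed Kcnma1 probe set had 0.73 and -0.56 there. The 2-fold counts over the lists were 1 of 7, 1 of 15 and 1 of 21 for digestion at day 7, against 11.4% of all, and 0, 1 and 0 at day 1, against 3.48%. Between the days they were 0, 2 and 3 in digested samples, against 8.07%, and 1, 0 and 3 in undigested samples, against 13.3%. Among the partners these held a pair of Gnb1 probe sets, a G protein beta subunit gene, at -1.81 and -1.15, beside 3 other Gnb1 probe sets at -0.53, -0.48 and 0.17, and the vesicle gene Rab3a at 1.14 in digested samples, and the G protein gene Gnao1 at 1.11 and the fusion protein gene Snap25 at -1.04 in undigested samples.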

How the data were processed

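Total RNA of 4 rat samples was measured on 4 single-channel arrays with 1322 probe sets, 59 of them controls. Each deposited value was a signal intensity on a linear scale, 1 per probe set; the software and scaling that the authors used are not given in the sources used here, and neither is a genome build. The means of the 4 arrays after trimming 2% at each end lay between 2515 and 2516, nearly equal between arrays. Depth is not defined for arrays, and their number, 1 per group, limits the precision. Gene names came from the array's annotation, and the symbols of all 23 calcium channel probe sets were unchanged in a current RefSeq table. Here the arrays were brought to the same median (factors 0.925 to 1.09), floored at the 20th percentile and taken to log2. Differences of at least 2-fold were counted where not both values lay at the floor. The additive fit used limma 3.58.1 in R 4.3.3 with 1 residual degree of freedom and Benjamini-Hochberg adjustment over 632 probe sets; its residual is how far the digestion difference changed from day 1 to day 7, so its error mixes that change with the spread between samples. Python 3.11.15 with scipy 1.17.1, numpy 2.4.6, matplotlib 3.10.9 and pandas 2.3.3 did the rest. The scaling, the 2-fold counting and the additive fit were tried on simulated data. The simulation had no effective floor and no brightness filter, so it did not test those steps. Alternatives were the deposited scaling, quantile normalisation, cyclic loess, an offset of 50, a 40th-percentile floor, no brightness filter, the brightest probe sets alone, 1.5-fold and 3-fold thresholds and 1 value per gene. Named genes were all members, the other Cacn genes, up to 4 per list with the largest difference, and the 3 nearest profiles of members with a range of at least 2-fold; list probe sets past 2-fold beyond these 4 were named after their values were seen, and the values of Atp2a2, Atp2b2, Atp2a3, Calm3 and Camk2g are left out of the text because none passed 2-fold. The members and lists were chosen with earlier results of these data known.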

Additional observations from a re-analysis of the deposited data

Results flagged for a closer look

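Cacnb1 went in opposite directions with digestion at the 2 days, past 2-fold each time, with a log2 difference of -1.20 at day 7 and 2.77 at day 1. The difference between the days was -3.97. Of the 632 analysed probe sets, 3 (0.475%) did so, Cacnb1 among them. The difference was not tested, since each value rests on 1 array per group, and that at day 1 on a signal of 64.1 in the undigested sample, near the floor of 51.8.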

How the results depend on the processing

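The values as deposited, quantile normalisation, cyclic loess, both other floors and 1 value per gene left each count of calcium channel probe sets past 2-fold as it was, and the medians of the pore-forming and auxiliary subunits moved by less than the SD between probe sets of a gene, though the pore-forming median of 0.09 for digestion at day 1 turned to -0.04 as deposited, -0.05 with quantile normalisation and -0.04 with cyclic loess. That SD was 0.52 for digestion at day 7, 0.32 at day 1, 0.41 between the days in digested and 0.52 in undigested samples, and is no replicate error. The setting of 1 value per gene could not change the members, since each analysed member gene had 1 analysed probe set. Without the brightness filter, the counts over 12 probe sets were 3 for digestion at day 7 (21.6% of all 1263 probe sets), 3 at day 1 (16.5%), 4 between the days in digested (19.2%) and 4 in undigested samples (22.5%) and 5 for the change of the digestion difference (29%), where the added ones are dim Cacna1c and Cacna1d probe sets. Among the brightest probe sets alone, which hold only Cacna2d1 and Cacnb3, the counts were 0. Of all 316 such probe sets 3.80% passed for digestion at day 7 and 0 at day 1. Between the days 3.48% passed in digested and 9.49% in undigested samples, and 6.33% for the change of the digestion difference. At 1.5-fold the counts among the 5 analysed members were 3 for digestion at day 7, 1 and 3 between the days in digested and undigested samples and 3 for the change of the digestion difference. At 3-fold Cacnb1 was lost for digestion at day 7, which left 0. Of the values of single probe sets under the 5 scalings and floors, 16 lost 2-fold, all of dim Cacna1c and Cacna1d probe sets. Cacnb1 stayed past 2-fold, but its log2 difference of 2.77 for digestion at day 1 was 1.43 with the 40th-percentile floor and 2.09 with the offset, and that of 3.72 between the days in undigested samples 2.38 and 2.97, each further than that SD. Over all analysed probe sets, 13 were higher and 9 lower past 2-fold for digestion at day 1 (7 and 12 as deposited), 44 and 28 at day 7 (53 and 20), 46 and 38 between the days in undigested samples (20 and 59) and 44 and 47 for the change of the digestion difference (67 and 27). No paired analysis was possible because each group held 1 array and no second replicate number exists to serve as a block; the additive fit, which takes digestion within each day, is not a replicate block. Signals near the floor limit what can be read of Cacna1d and of the size of the Cacnb1 differences.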
